A study of Homo sapiens with 2 samples.

Results

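The C/EBPβ ChIP-seq list of HL-60 cells holds 461 peaks that lie near the starts of more than 1 protein-coding gene, of 7029 listed peaks in all (6.56%, exact Clopper-Pearson 95% interval 5.99 to 7.16). A peak was taken when its middle lay within 1000 bases of RefSeq protein-coding (NM) transcript starts of at least 2 gene symbols and those starts differed by more than 10 bases. The choice used positions only, and no measure of binding. HL-60 cells derive from a human myeloid leukaemia and are labelled myeloblasts, and both libraries came from a C/EBPβ-overexpressed culture of them. The ChIP library was made with an antibody to C/EBPβ and the input library without antibody, with 1 sample of each and no replicate. The listed peaks are those of the ChIP library, the labels used here name no vector or level of overexpression, and cells without overexpression were not analysed here. With 1 library no difference between conditions could be tested, so all values are descriptions, and intervals cover counting error over peaks or genes only.

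C/EBPβ belongs to the basic leucine zipper factors, binds DNA as a dimer and is known in myeloid cells for its part in macrophage and granulocyte differentiation and in inflammatory gene expression. Human genes often lie head to head, with starts close together on opposite strands, and the DNA between such starts is called a bidirectional promoter. Such promoters are commonly rich in CpG dinucleotides and serve many housekeeping genes, including genes of DNA repair, the cell cycle and mitochondria.

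A working description of these peaks as lying between 2 starts held for only some of them. The peak middle lay between the nearest starts of its pair in 140 of the 461 peaks (30.4%, 26.2 to 34.8), and the other 321 middles lay to 1 side of both starts. The set is therefore called here peaks near a pair of close starts, and the pair of a peak is the 2 genes whose starts were nearest to its middle.

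The sequences between the starts of some divergent pairs are shown because they are the stretches these peaks sit on or beside. They were read from the RefSeq promoter table of build GRCh38.p14, on the plus strand from 5′ to 3′. Pairs were shown only where the separation of the starts in that table was within 50 bases of that in the hg19 peak list. Peak positions, which are hg19, cannot be laid on these letters. Capitals mark the C/EBP letters TTGCNNAA or the CCAAT box letters CCAAT, on either strand. In the first 3 pairs a listed peak had its middle between the starts and C/EBP letters were present. ALG3 encodes a mannosyltransferase of protein glycosylation, ECE2 an endothelin-converting metalloprotease, and HIST1H2AE and HIST1H2BG the core histones H2A and H2B. The stretches are chr3:184249526-184249671, chr2:37084373-37084517 and chr6:26216689-26216920.
ALG3/ECE2: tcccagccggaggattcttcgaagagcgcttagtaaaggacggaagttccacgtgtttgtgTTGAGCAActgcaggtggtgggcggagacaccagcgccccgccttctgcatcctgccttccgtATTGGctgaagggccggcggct
HEATR5B/GPATCH11: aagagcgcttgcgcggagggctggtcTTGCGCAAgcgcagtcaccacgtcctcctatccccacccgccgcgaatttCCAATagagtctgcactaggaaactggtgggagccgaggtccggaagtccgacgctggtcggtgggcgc
HIST1H2BG/HIST1H2AE: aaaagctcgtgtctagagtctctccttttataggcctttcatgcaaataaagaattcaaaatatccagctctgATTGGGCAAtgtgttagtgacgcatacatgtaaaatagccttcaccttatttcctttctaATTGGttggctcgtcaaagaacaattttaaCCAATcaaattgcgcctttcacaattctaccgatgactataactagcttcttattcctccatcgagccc
The HEATR5B/GPATCH11 stretch holds the self-complementary form TTGCGCAA, and in the HIST1H2BG/HIST1H2AE stretch the C/EBP letters overlap CCAAT letters.

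The next 3 pairs also had a peak middle between the starts, and their stretches hold no C/EBP letters. NUFIP1 encodes an RNA-binding nuclear protein, RPL15 a protein of the large ribosomal subunit, NKIRAS1 a Ras-like protein that binds NF-κB inhibitors, and DEDD2 a death effector domain protein. The stretches are chr13:44989472-44989537, chr3:23916991-23917097 and chr19:42220135-42220311.
NUFIP1/GPALPP1: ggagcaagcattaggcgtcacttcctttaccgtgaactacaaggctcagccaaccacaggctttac
NKIRAS1/RPL15: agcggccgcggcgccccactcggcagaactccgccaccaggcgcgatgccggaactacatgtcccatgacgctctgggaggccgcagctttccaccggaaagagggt
DEDD2/ZNF526: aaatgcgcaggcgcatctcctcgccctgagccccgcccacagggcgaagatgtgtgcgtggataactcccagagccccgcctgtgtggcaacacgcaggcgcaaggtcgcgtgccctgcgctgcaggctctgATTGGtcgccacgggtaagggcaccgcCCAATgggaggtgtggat

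The last 3 are pairs whose genes share a role, and none of their listed peaks had its middle between the starts. HSPD1 and HSPE1 encode the chaperonin Hsp60 and its co-chaperonin Hsp10 of mitochondria, and the other pairs encode core histones. The stretches are chr6:26123927-26124171, chr6:27132796-27133042 and chr2:197500275-197500378.
HIST1H2BC/HIST1H2AC: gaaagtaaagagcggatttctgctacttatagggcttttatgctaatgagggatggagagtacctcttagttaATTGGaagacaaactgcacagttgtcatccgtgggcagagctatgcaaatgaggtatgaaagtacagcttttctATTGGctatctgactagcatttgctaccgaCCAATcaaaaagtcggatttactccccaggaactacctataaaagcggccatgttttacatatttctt
HIST1H2BJ/HIST1H2AG: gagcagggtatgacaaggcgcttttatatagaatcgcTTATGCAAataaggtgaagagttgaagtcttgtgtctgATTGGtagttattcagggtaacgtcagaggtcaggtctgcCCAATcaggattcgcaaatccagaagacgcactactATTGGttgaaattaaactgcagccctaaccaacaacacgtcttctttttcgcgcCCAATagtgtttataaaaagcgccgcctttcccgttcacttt
HSPD1/HSPE1: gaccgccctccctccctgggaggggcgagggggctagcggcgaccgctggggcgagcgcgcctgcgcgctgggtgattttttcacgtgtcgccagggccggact
The HIST1H2BC/HIST1H2AC stretch has 3 runs of CCAAT letters and no C/EBP letters, and the HSPD1/HSPE1 stretch has neither. Of 135 divergent pairs with a tabled stretch, only 65 had a stretch of at most 250 bases whose length matched the hg19 separation within 50 bases. C/EBP letters were in 5 of these 65 stretches and CCAAT letters in 21, and 18 had a peak middle between the starts, 4 of them with C/EBP letters. The counts were not adjusted for the length of the stretches, and no link between letters and peak position was tested. The stretches had a median length of 109 bases and a median GC content of 67.3%.

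The 461 peaks belonged to 386 pairs of genes. A single peak was listed for 316 pairs, 2 peaks for 65 pairs and 3 peaks for 5 pairs, and 775 genes had a start within 1000 bases of at least 1 of the peaks. Most peaks (451) were near starts of 2 genes and 10 were near starts of 3 gene symbols. Except at HIST2H2AC/HIST2H2AB and HIST1H2AD/HIST1H2BF, 1 of those 3 symbols named a transcript that joins neighbouring genes, as HSPE1-MOB4 at HSPD1/HSPE1. Of the peaks near starts of 2 or more genes, 19 were left out because their starts were at most 10 bases apart, as at KLHL18/KIF9 and LRRC57/HAUS2 with 8 bases and NDUFB11/RBM10 with 7 bases. Just above that limit were AP5M1/EXOC5 and FAM63A/PRUNE with 12 bases and TXNDC12/BTF3L4 with 13 bases.

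Distances are given from a start to the peak middle, and a positive distance puts the middle at the higher hg19 position. Just inside the limit of 1000 bases were PRR19/PAFAH1B3 with 980 bases from the PRR19 start and HIST1H2BB/HIST1H3C with −979 bases from the HIST1H3C start. Just outside it were CCDC59/METTL25 with −1005 bases from the METTL25 start, C1orf109/CDCA8 with 1008 bases from the C1orf109 start and OXLD1/CCDC137 with −1009 bases from the CCDC137 start.

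The starts of a pair were mostly close together. Over peaks, their separation had a median of 189 bases (95% interval 158 to 225), with 10% of peaks below 34 bases and 10% above 726 bases. A pair with several peaks enters once per peak, and the interval takes peaks as separate. It was at most 100 bases at 146 peaks (31.7%), at most 300 bases at 307 peaks (66.6%) and at most 500 bases at 377 peaks (81.8%). The narrowest pairs were AP5M1/EXOC5, which joins an adaptor complex subunit gene with an exocyst subunit gene, and FAM63A/PRUNE, both at 12 bases. The widest were histone pairs and GPBP1L1/TMEM69, with 1753 bases at HIST1H2BB/HIST1H3C, 1544 bases at GPBP1L1/TMEM69 and 1508 bases at HIST1H3B/HIST1H2AB.

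**Figure D1:**
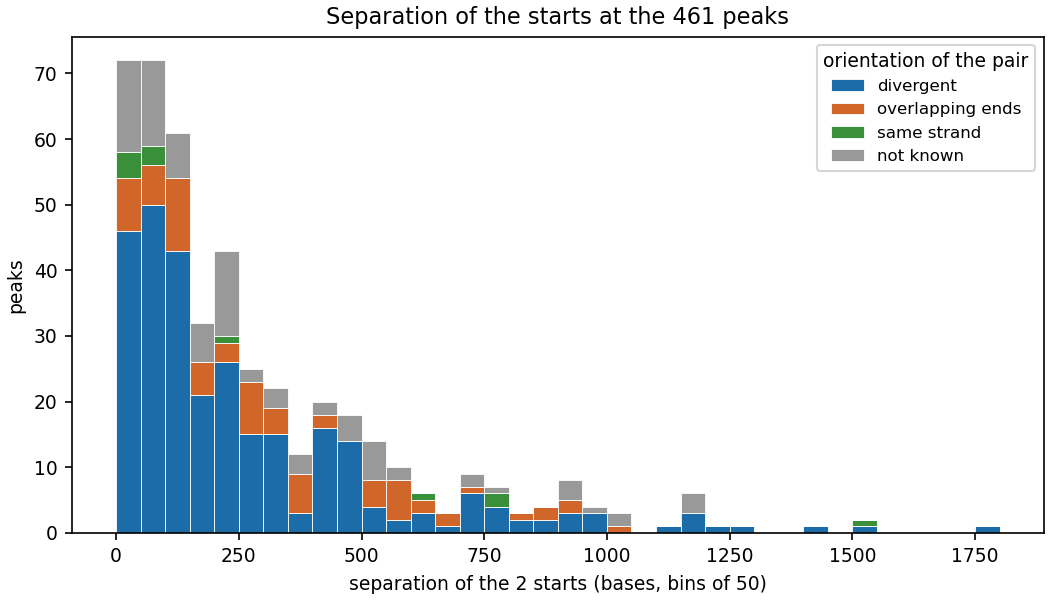
Number of peaks (vertical axis) by the separation of the starts of the pair in bases, in bins of 50 (horizontal axis), coloured by orientation, for the 461 peaks. The bars are tallest at the left: 238 of the 461 peaks have starts at most 200 bases apart, and the farthest pair is at 1753 bases.

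Every peak middle lay within 1000 bases of both starts by the rule. The distances to the starts therefore describe the set and are no finding. The nearer start was at a median of 137 bases (119 to 152) from the middle and the farther start at a median of 368 bases (325 to 397). Of the 321 middles that lay outside the pair, 190 (59.2%, 53.6 to 64.6) were within 200 bases of the nearer start. As intervals rather than middles, 266 peaks (57.7%) overlapped the stretch between the starts, 81 (17.6%) covered both starts, 132 (28.6%) covered exactly 1 start, 53 (11.5%) lay wholly between them and 195 (42.3%) lay wholly outside.

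The share of middles between the starts followed the length of the stretch. It was 13 of 146 peaks (8.90%, 4.83 to 14.7) at separations of 11 to 100 bases, 38 of 161 (23.6%, 17.3 to 30.9) at 101 to 300 bases and 73 of 138 (52.9%, 44.2 to 61.4) at 301 to 1000 bases. The stretch itself made up on average 2.72%, 10.4% and 40.7% of the positions that the 1000-base limit allowed a middle in those 3 bins. In each bin the share of middles between the starts was above the share of positions. The starts used were those nearest to each middle and could differ between peaks of a pair, while the share of positions takes them as fixed. The share of positions also weighs positions near a start and far from it alike. The part of these choices in the excess was not tested, and no conclusion is drawn from it. Beyond 1000 bases the rule forces every middle between the starts, as in all 16 such peaks. No test was made of these differences.

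**Figure D2:**
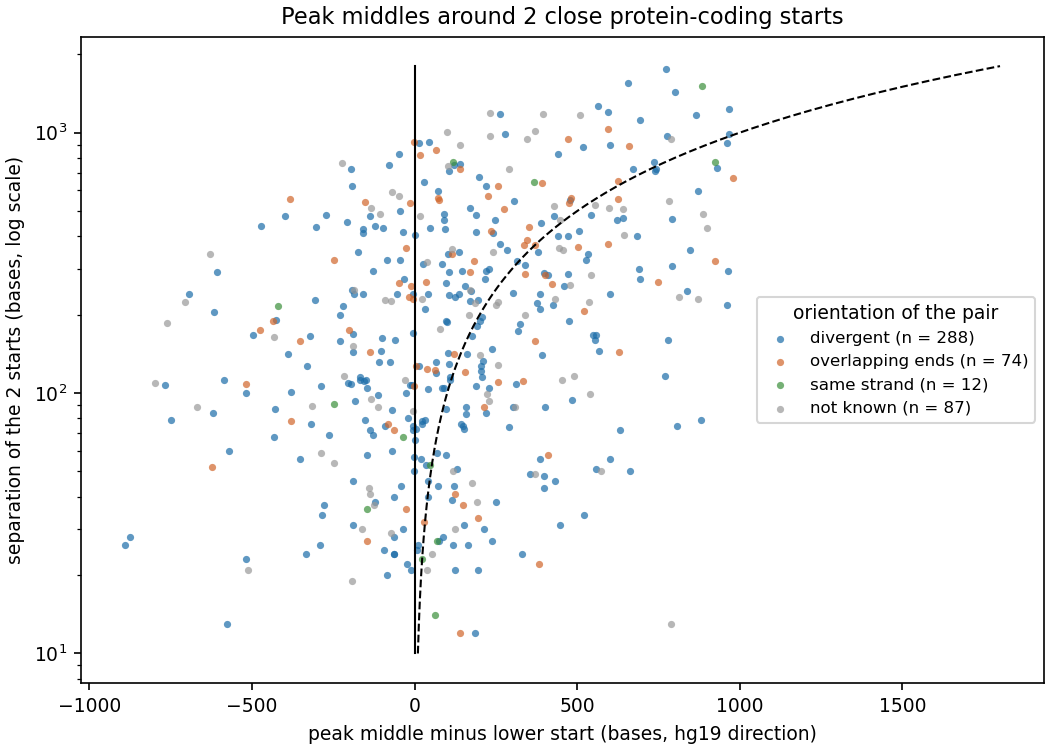
Position of each peak middle relative to the lower start in bases (horizontal axis) against the separation of the starts in bases (vertical axis, log scale), 1 point per peak, coloured by orientation. The solid line is the lower start and the dashed curve the higher start; 140 of the 461 points lie between the lines.

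Some peaks were centred on their pair. At ALG3/ECE2 the peak on chromosome 3 from 183967246 to 183967511 had its middle 65 bases from the ALG3 start and −66 bases from the ECE2 start. At TAP1/PSMB9 a peak on chromosome 6 from 32821705 to 32821984 had its middle 96 bases from the TAP1 start and −93 bases from the PSMB9 start. TAP1 encodes a subunit of the transporter that carries peptides for antigen presentation and PSMB9 an immunoproteasome subunit. This pair had a second peak, from 32822056 to 32822393, with its middle 476 bases from the TAP1 start and 287 bases from the PSMB9 start, outside the stretch. At PDAP1/BUD31, which includes a splicing factor gene (BUD31), the distances were 147 and −148 bases. At NUP98/PGAP2, which joins a nuclear pore gene with a gene of GPI anchor maturation, the starts were only 26 bases apart and the distances were 11 and −15 bases.

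Most pairs of known orientation were head to head. Strands were taken from RefSeq for 374 of the 461 peaks (81.1%); the others had a gene without a strand in the table. The pair was divergent, with the lower gene on the minus strand and the higher gene on the plus strand, at 288 peaks (77.0%, 72.4 to 81.2) in 242 pairs. In 67 pairs with 74 peaks (19.8%, 15.9 to 24.2) the lower gene was on the plus strand and the higher on the minus strand, so that the 5′ ends overlap, and in 11 pairs with 12 peaks (3.21%, 1.67 to 5.54) both genes were on 1 strand. In 6 pairs the orientation differed between peaks, because another start of a gene was nearest, and these pairs count under both. With each pair counted once, by its first listed peak, 239 of 314 pairs (76.1%) were divergent. The same-strand peaks include some with a readthrough gene, an annotated transcript that joins neighbouring genes, as at ST20/ST20-MTHFS. Such a gene was in the pair of 5 of all 461 peaks, and outside the pair at other peaks, as at HSPD1/HSPE1.

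Divergent pairs had a median separation of 163.5 bases over their peaks, pairs with overlapping ends 268 bases and same-strand pairs 79.5 bases. The middle lay between the starts at 84 of the 288 peaks of divergent pairs (29.2%, 24.0 to 34.8), 29 of the 74 peaks of pairs with overlapping ends (39.2%, 28.0 to 51.2) and 5 of the 12 same-strand peaks. The intervals overlap. Median peak widths were close, at 236 bases for divergent pairs, 237.5 bases for pairs with overlapping ends and 219.5 bases for same-strand pairs.

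A noncoding RefSeq start was more often near peaks at pairs than near peaks at single genes, without adjustment for the number of genes. A noncoding start lay within 1000 bases of the middle at 138 of the 461 peaks (29.9%, 25.8 to 34.3), against 711 of the 4110 peaks near protein-coding starts of exactly 1 gene (17.3%, 16.2 to 18.5), called single-gene peaks from here on. The intervals are apart, and the difference was not tested. By the rule, peaks near a pair have starts of more than 1 gene and single-gene peaks of exactly 1. The values do not say whether a noncoding start belongs to those same genes. The difference may thus come from the rule, and no conclusion is drawn from it. Another listed peak lay within 3000 bases of the starts at 200 of the 461 peaks (43.4%, 38.8 to 48.0).

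Peaks near a pair were about as wide as single-gene peaks. Width, the end minus the start of a peak, is the only size measure in the list; the list has no height, enrichment or read depth. The median was 234 bases (220 to 253) for the 461 peaks and 231 bases (227 to 235) for the single-gene peaks, a difference of 3 bases that changed sign when starts within 2000 bases were allowed (−2 bases). Peaks wider than 500 bases made up 8.89% of the 461 peaks and 7.20% of the single-gene peaks. Widths of at most 150 bases, near the list's smallest width of 146 bases, made up 12.4% (9.50 to 15.7) of the 461 peaks and 10.6% (9.66 to 11.6) of the single-gene peaks. Among the 461 peaks, those with the middle between the starts had a median width of 259 bases (231 to 280, 140 peaks) and those with the middle outside 227 bases (212 to 241, 321 peaks).

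Median width was also lower farther from the nearer start in both sets. Within 100 bases of the nearer start the median was 257 bases for peaks near a pair and 240 bases for single-gene peaks. At 101 to 300 bases it was 231 bases for peaks near a pair and 232 bases for single-gene peaks. At 301 to 1000 bases it was 198.5 bases for peaks near a pair and 224 bases for single-gene peaks. The distance to the nearer start had a median of 137 bases for peaks near a pair and 245 bases for single-gene peaks, but the rule takes the nearer of 2 genes' starts in the first set and has 1 gene in the second, so this is no finding. The part of this distance in the width values was not tested.

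The widest peak, of 1187 bases on chromosome 1 from 149858403 to 149859590, lay at HIST2H2AC/HIST2H2AB with its middle 472 bases from the HIST2H2AC start and −470 bases from the HIST2H2AB start. It was also 1 of the 10 peaks near starts of 3 genes. The peak at FAS/ACTA2, 1086 bases wide on chromosome 10 from 90749811 to 90750897, had its middle 67 bases from the start of FAS, which encodes a death receptor, and −793 bases from that of ACTA2, which encodes a smooth muscle actin. At TRIP12/FBXO36, a ubiquitin ligase gene and an F-box gene, the peak was 900 bases wide with distances of −272 and −753 bases. At HDLBP/SEPTIN2, a gene for an RNA-binding protein and a septin gene, it was 852 bases wide, with distances of −60 and −220 bases. Of these 4 peaks, those at HIST2H2AC/HIST2H2AB and FAS/ACTA2 had the middle between the starts.

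Several pairs carried more than 1 peak. In the 70 pairs with 2 or 3 peaks (145 peaks), 32 pairs had peak middles on both outer sides and 29 had at least 1 middle between the starts. The 5 pairs with 3 peaks were HDLBP/SEPTIN2, ISG20L2/RRNAD1, HIST1H2BC/HIST1H2AC, HIST1H2BK/HIST1H2AH and SLC16A6/ARSG. At ISG20L2/RRNAD1, whose starts were 31 bases apart, the middles lay −189, 153 and 446 bases from the ISG20L2 start. At SLC16A6/ARSG, a transporter gene and a sulfatase gene with starts 230 bases apart, they lay 22, 432 and 870 bases from the SLC16A6 start. The first of the SLC16A6/ARSG middles is between the starts, and none of the ISG20L2/RRNAD1 middles is. At LIG4/ABHD13, which includes the DNA ligase of double-strand break repair, the 2 peaks flanked starts 46 bases apart, with middles −189 and 432 bases from the LIG4 start.

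**Figure D3:**
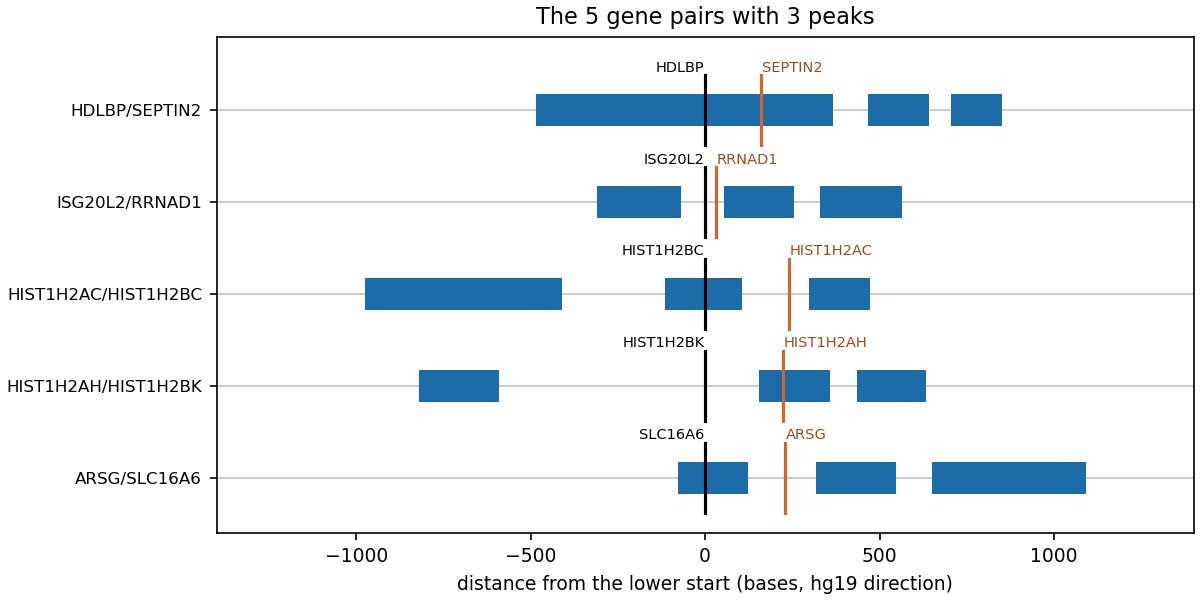
Listed peaks (blue boxes, to scale) at the 5 pairs with 3 peaks, along the distance in bases from the lower start in hg19 direction (horizontal axis), 1 pair per line. Vertical lines mark the lower start (black) and the higher start (orange); the HDLBP/SEPTIN2 peak of 852 bases covers both starts.

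The background for these peaks is how often genes and close divergent pairs had a listed peak at all. Of 15813 protein-coding genes of the promoter table, 3363 (21.3%) had a listed peak within 1000 bases of a start. Of 989 divergent pairs with tabled starts at most 1000 bases apart, 289 (29.2%, 26.4 to 32.2) had 1 peak within 1000 bases of both starts, and 385 (38.9%, 35.9 to 42) had a peak within 1000 bases of at least 1 start. Of 12607 genes with no start or end of another protein-coding gene within 1000 bases of their starts, 2381 (18.9%, 18.2 to 19.6) had a peak. A pair offers starts of 2 genes to a peak, so shares of pairs and shares of genes have different units, and their differences were not tested. By tabled separation, a peak near both starts was listed for 65 of 261 pairs (24.9%) at up to 100 bases, 151 of 494 (30.6%) at 101 to 300 bases and 73 of 234 (31.2%) at 301 to 1000 bases.

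Gene groups differed in how often their peaks lay near a pair. Of the 4049 genes with a peak within 1000 bases, 775 (19.1%, 17.9 to 20.4) had it near a pair of starts, and the shares of 10 gene lists are set beside that value as descriptions. A gene without a close neighbour cannot enter, and the shares were not adjusted for the spacing of genes. Histone genes stood highest, with 26 of 48 (54.2%, 39.2 to 68.6), followed by transcription and RNA processing genes with 26 of 69 (37.7%, 26.3 to 50.2) and cell cycle and mitosis genes with 19 of 63 (30.2%, 19.2 to 43.0). Myeloid and inflammatory genes stood lowest, with 2 of 59 (3.39%, 0.413 to 11.7).

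**Figure D4:**
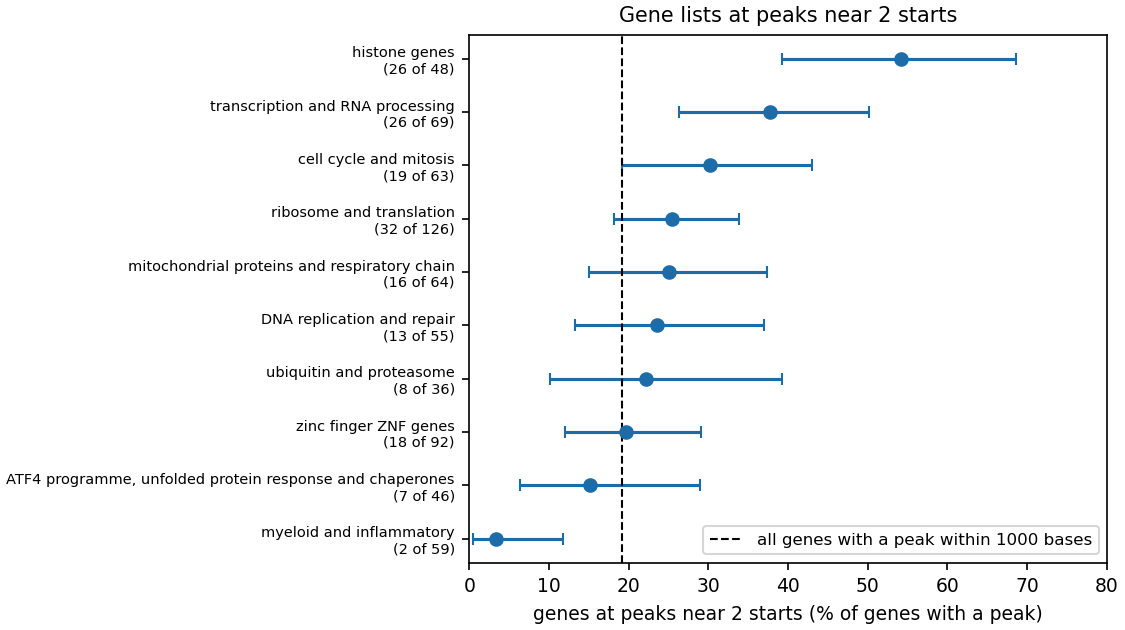
Share of each list's genes with a peak within 1000 bases whose peak lies near a pair of starts (horizontal axis, percent), 1 list per line, with exact 95% intervals for counting error. The dashed line is the 19.1% of all genes with a peak; histone genes lie at 54.2% and myeloid and inflammatory genes at 3.39%.

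The histone genes encode the proteins that package DNA, and the replication-dependent ones lie in clusters in which H2A and H2B genes are often head to head. In 13 pairs with 19 peaks both genes were histone genes. Distances from the lower and the higher start were 96 and −169 bases at HIST1H2AD/HIST1H2BF, where the peak was 604 bases wide, and 217 and −58 bases for the wider peak at HIST1H2BG/HIST1H2AE, of 481 bases. Both middles are between the starts. The 3 peaks at HIST1H2BC/HIST1H2AC had middles −694, −4 and 385 bases from the HIST1H2BC start. Those at HIST1H2BK/HIST1H2AH lay −706, 256 and 535 bases from the HIST1H2BK start, and none of these 6 middles is between the starts. At HIST3H2A/HIST3H2BB the peak was 492 bases wide and lay 838 and 591 bases from the starts. Histone genes have near-identical copies, and the sources used here do not say how reads that match several copies were placed, so these peaks are uncertain.

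Among transcription and RNA processing genes, the widest peaks were at POLR3C/RNF115, HNRNPH3/PBLD, PSMB1/TBP and POLR2L/TSPAN4. POLR3C encodes a subunit of RNA polymerase III, and its peak of 470 bases lay 181 bases from the POLR3C start and −140 bases from the RNF115 start. At POLR2L/TSPAN4, where POLR2L encodes a subunit shared by RNA polymerases, the wider peak, of 406 bases, lay 220 and −74 bases from the starts. A second peak there, of 150 bases, lay −127 and −421 bases from the starts, with its middle outside them. At PSMB1/TBP, a proteasome subunit gene and the gene of the TATA-binding protein, the peak of 432 bases lay 99 bases from the PSMB1 start and −904 bases from the TBP start. At HNRNPH3/PBLD, which includes a gene of an RNA-binding protein, the peak of 436 bases lay −1 base from the HNRNPH3 start. The middle is between the starts at POLR3C/RNF115, PSMB1/TBP and the wider POLR2L/TSPAN4 peak, and just outside them at HNRNPH3/PBLD.

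Cell cycle genes included NUSAP1 and OIP5, a spindle protein gene and a centromere protein gene that form 1 pair. Their peak on chromosome 15 was 329 bases wide, with its middle −137 bases from the OIP5 start and −209 bases from the NUSAP1 start. At ANAPC13/CEP63, a subunit gene of the anaphase-promoting complex and a centrosome gene, the wider peak had 632 bases and lay 191 and 10 bases from the starts. A second peak of this pair was 200 bases wide. Neither the NUSAP1/OIP5 middle nor that of the wider ANAPC13/CEP63 peak is between the starts. At RPL4/ZWILCH, a ribosomal protein gene and a kinetochore gene, the distances were 195 and −32 bases, which is between them.

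Ribosome and translation genes had 32 of 126 (25.4%, 18.1 to 33.9) and mitochondrial and respiratory chain genes 16 of 64 (25%, 15.0 to 37.4). MRPS12 and SARS2, which encode a mitochondrial ribosomal protein and mitochondrial seryl-tRNA synthetase, formed a pair with a peak −435 and −624 bases from the starts. At EIF2B4/SNX17, which includes a subunit gene of the exchange factor of translation initiation, the peak of 472 bases lay 191 and 153 bases from the starts. At HSPD1/HSPE1 the peak on chromosome 2 from 198364433 to 198364810 lay −19 bases from the HSPD1 start and −99 bases from the HSPE1 start, so in hg19 it covered both starts with its middle to the lower side of both. At TSSK6/NDUFA13, which includes a complex I gene, the peak of 410 bases lay 479 bases from the TSSK6 start and −70 bases from the NDUFA13 start.

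DNA replication and repair genes had 13 of 55 (23.6%, 13.2 to 37.0). At AP4M1/MCM7, where MCM7 encodes a subunit of the replicative helicase, the wider peak, of 503 bases, lay 352 and −82 bases from the starts. A second peak of this pair was 272 bases wide. At OSGEP/APEX1, where APEX1 encodes the main abasic site endonuclease, the peak of 452 bases lay −23 and −45 bases from starts 22 bases apart. The middle of the wider AP4M1/MCM7 peak is between the starts and that at OSGEP/APEX1 is not.

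Ubiquitin and proteasome genes had 8 of 36 (22.2%), ZNF zinc finger genes 18 of 92 (19.6%), and genes of the ATF4 programme, the unfolded protein response and chaperones 7 of 46 (15.2%, 6.34 to 28.9). These shares are near the 19.1% of all genes with a peak. In 6 pairs both genes were ZNF genes, among them ZNF668/ZNF646 with a peak of 825 bases at 45 and −874 bases from the starts. ZNF genes come in clusters of similar sequence, and their peaks carry the same uncertainty over read placement as those of histone genes. Of the chaperone list, the peak at APOM/BAG6 was 765 bases wide with distances of 171 and −120 bases, and that at THAP5/DNAJB9 was 207 bases wide with distances of 105 and −186 bases. BAG6 encodes a chaperone of membrane proteins and DNAJB9 a co-chaperone of the endoplasmic reticulum, and both middles are between the starts.

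The 2 genes of the myeloid and inflammatory list were GFI1B and NFKBIB. Genes that this list leaves out, such as TAP1 of antigen presentation, are not counted in its share. GFI1B, a transcriptional repressor of blood cell development, shared its peak with TSC1, at −897 bases from the GFI1B start and 14 bases from the TSC1 start. NFKBIB, an inhibitor of NF-κB, shared its peak with SIRT2, a deacetylase gene, at 37 bases from the NFKBIB start and −87 bases from the SIRT2 start. The TSC1/GFI1B peak is thus at the TSC1 start, while that of NFKBIB/SIRT2 is between starts 124 bases apart.

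Promoter letters were compared between 4 sets of genes in windows of 300 bases, from 250 before to 50 after the RefSeq start on GRCh38.p14, for 675 of 770 genes of the pairs. The C/EBP letters TTGCNNAA were in 9.19% (7.11 to 11.6) of windows of genes at peaks near a pair and in 11.2% (10.0 to 12.4) at genes with single-gene peaks. They were in 5.56% (4.37 to 6.97) of windows of divergent pairs without a peak and in 8.37% of all 15813 windows. The set called divergent pairs without a peak holds 1276 genes, and some of them belong to pairs that had a listed peak near a start. For genes of divergent pairs alone the share at peaks near a pair was 8.73% (6.37 to 11.6), whose interval overlaps that of divergent pairs without a peak. With the stricter letters TTGCGCAA, TTGCNCAA or TTGCGNAA the share was 3.70% (2.41 to 5.42) at peaks near a pair, 5.21% (4.39 to 6.12) at single-gene peaks and 2.74% (1.92 to 3.79) in divergent pairs without a peak, also with overlapping intervals between the first and the last of these sets. No test was made of these differences in C/EBP letters. These windows are fixed to the start and need not hold the peak. The windows of both genes of a close divergent pair share DNA, so a site there can count for each gene. The intervals take windows as separate, so those of sets with divergent pairs may be too narrow.

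The other letters were searched on both strands as well. The ETS letters CCGGAAG were in 25.9% (22.7 to 29.4) of windows at peaks near a pair, 19.1% at single-gene peaks, 27.3% of divergent pairs without a peak and 14.2% of all windows. The share at peaks near a pair was thus close to that of other divergent pairs. The AP-1 letters TGANTCA were in 5.04%, 4.98%, 2.12% and 5.75% of the windows in the same order of sets. The CRE letters TGACGTCA were in 4.59%, 3.89%, 3.61% and 2.59%, and the TATA letters TATAAA in 5.48%, 6.79%, 3.53% and 9.64%. For AP-1, TATA and the C/EBP-ATF letters given below, as for C/EBP, divergent pairs without a peak had the lowest share of the 4 sets. The CCAAT letters were in 39.1%, 37.1%, 40.1% and 36.3%, and the GC box letters GGGCGG in 66.8%, 68.6%, 71.4% and 58.5%. The composite C/EBP-ATF letters TGATGNAAT were in 2 windows at peaks near a pair (0.296%), and in 0.755% at single-gene peaks, 0.157% of divergent pairs without a peak and 0.626% of all windows. A longer NRF1 site was in 2.22%, 1.92%, 3.13% and 1.76% of windows in the same order of sets, and a longer YY1 site in 2.81%, 1.89%, 2.51% and 1.37%. In windows at peaks near a pair the C/EBP letters overlapped CCAAT letters in 6 windows and AP-1 letters in 1. The median GC content was 63.0%, 64.7%, 65.0% and 62.7% in the same order, so the sets also differ in base composition, and its part in the motif shares was not tested.

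**Figure D5:**
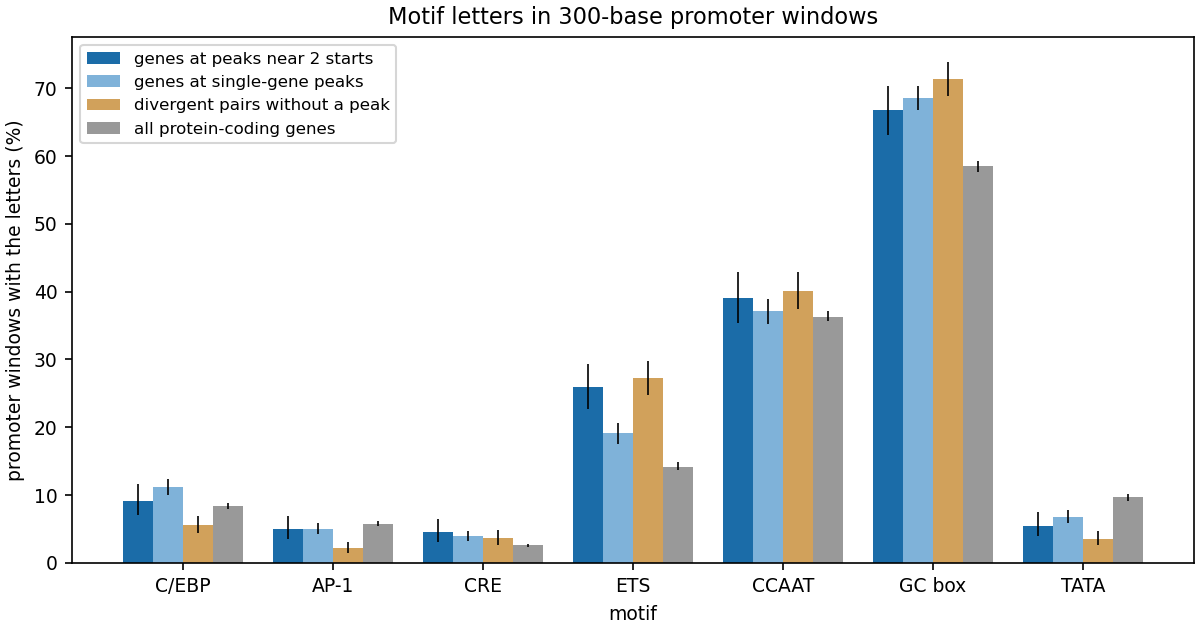
Share of promoter windows of 300 bases with each set of letters (vertical axis, percent) by motif (horizontal axis) for genes at peaks near a pair, genes at single-gene peaks, divergent pairs without a peak and all protein-coding genes, with exact 95% intervals. ETS letters reach 25.9% at peaks near a pair and 27.3% in divergent pairs without a peak, against 14.2% of all windows. Some genes of the set called divergent pairs without a peak belong to pairs that had a listed peak near a start. Windows of a divergent pair can share DNA, and the intervals take windows as separate.

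The peaks near a pair were spread over the chromosomes. They made up 9.89% (7.25 to 13.1) of the listed peaks on chromosome 6 (43 of 435), 9.64% on chromosome 2 (48 of 498) and 9.02% on chromosome 16 (24 of 266). Over the whole list the share was 6.56%. Chromosome 6 carries the main histone clusters, and their part in its share was not tested. The lowest share was 4.0% on chromosome 15 (9 of 225), and chromosome X had 6 of 120 (5.00%).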

How the data were processed

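C/EBPβ binding was measured by ChIP-seq in C/EBPβ-overexpressing HL-60 cells, with 1 ChIP and 1 input library. Per the submitters' processing notes, BWA 0.7.10, SAMtools and MACS2 2.1.1 were used with build hg19. The sources used here do not give the peak threshold, the use of the input or the coordinate base. The authors' deposited list holds 17637 pairs of a peak and a transcript whose start is within 3000 bases. Its deposited score is a function of distance only, without peak strength, so read depth is unknown; counting intervals do not cover it. Of the distances in the deposited file, those to 10439 protein-coding transcripts were used, and a start is the rounded-down peak middle minus the distance. A total of 7 symbols turned into dates were recovered by accession.

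Members, gene lists and tests were chosen with earlier results of these data known. Named pairs followed a fixed rule: smallest and largest separations, widest peaks, middles nearest the midpoint, pairs with several peaks or 3 genes, up to 4 pairs per list by width, pairs wholly in 1 list and those next to each threshold; other pairs whose sequences are printed were chosen after their values were seen. Some pairs that the rule names are not reported here. Strands and sequences came from RefSeq GRCh38.p14. Shares carry exact binomial intervals and medians carry order-statistic intervals, both at 95%. They take peaks, genes and windows as separate, also where peaks share a pair or windows share DNA. The search was tested on simulated data. Python 3.11.15, pandas 2.3.3, numpy 2.4.6 and SciPy 1.17.1 were used. The 8 alternatives tried are given in the closing section.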

Additional observations from a re-analysis of the deposited data

How the results depend on the processing

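No paired analysis was possible because neither library has a replicate. The list has no peak height, so a stricter peak set could be made only by width, and depth limits cannot be given. With both starts within 500 bases there were 305 peaks (4.34% of the list) with a median separation of 121 bases, and within 2000 bases the share was 8.91% and the median separation 240.5 bases. The difference in median width from single-gene peaks, 3 bases as reported, was −2 bases within 2000 bases and 20 bases among peaks wider than the median, and the cause was not tested. With starts more than 100 bases apart, 4.99% of peaks entered, the median separation was 308 bases and 41.3% of middles lay between the starts; fewer close pairs enter by construction. Among peaks wider than the list's median of 229 bases there were 237, with 35% of middles between the starts. The stricter C/EBP letters were in 3.70% of windows at peaks near a pair and 2.74% in divergent pairs without a peak, with overlapping intervals, as for genes of divergent pairs alone (8.73% against 5.56%). The divergent share with each pair counted once, 76.1% as reported, ran from 74.5% to 77.3% over the alternatives. The number of peaks was 626 within 2000 bases, 351 with starts more than 100 bases apart, 471 with starts more than 0 bases apart and 457 with current symbols and no readthrough genes. In the last 2 settings the share of middles between the starts was 28.9% and 29.8%.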
